A study of Mus musculus with 8 samples.

Results

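Of the distal peaks of Chd8 in oligodendrocyte precursor cells, 2402 were found again as a peak in exactly one of 2 Chd7 libraries. They were chosen from the authors' peak lists in 3 steps. Of 18415 listed Chd8 peaks, 65 met a mock peak and were set aside, which left 18350. Of these, 9712 lay more than 1 kb from both boundaries of every protein-coding gene in RefSeq and are called distal here. The members are the 2402 distal peaks, 24.7% of the 9712, that overlapped by at least 1 bp a peak of Chd7 replicate 1 or of Chd7 replicate 2 but not of both. The overlap was with Chd7 replicate 1 for 1781 members and with Chd7 replicate 2 for 621. Another 518 distal Chd8 peaks overlapped both Chd7 libraries and 6792 overlapped neither. Among all mock-free Chd8 peaks, gene ends included, 27.5% had a Chd7 peak in exactly one library.

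The cells were sorted with magnetic beads against O4, a surface antigen of the oligodendrocyte lineage, from cortex and corpus callosum of wild-type mice at postnatal day 7, and no group carried a mutation or a treatment. The labels call these cells OPC, and chromatin immunoprecipitation and sequencing gave 8 libraries: 2 with an antibody against Chd7, 1 against Chd8, 2 mocks with rabbit IgG and 3 inputs, which are sheared chromatin without precipitation. Chd7 replicate 2 and the Chd8 library shared 1 mock. The labels do not say whether the replicates came from separate animals. O4 also marks cells that have left the precursor stage, so a sorted pool can hold several stages, and peak lists give no level of a marker gene with which to check it. Each side of the set rests on 1 Chd7 library and all of it on 1 Chd8 library, so no error between replicates and no test over samples can be given. The lists hold no read counts and the depth of each library is unknown. Intervals in brackets are 95% Clopper-Pearson intervals over peaks or genes and cover counting error only. The presence or absence of a Chd7 peak and the distance from gene boundaries chose the members, and these values are given as a description.

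Chd7 and Chd8 belong to the CHD family of remodelers, which use ATP to move or evict nucleosomes and so alter access to DNA. In the oligodendrocyte lineage both are known as regulators of the step from precursor to myelinating cell, and human CHD7 and CHD8 are linked to CHARGE syndrome and to autism. Distal peaks of chromatin proteins often mark enhancers, stretches of DNA that act on a promoter from a distance. Peaks of input chromatin show where reads gather without any antibody, and they are reported beside each group.

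A member is far from the outer boundaries of genes, but it can still hold a start site, because a gene with several promoters has starts inside its body and because genes of long non-coding RNAs (lncRNAs) were not part of the rule. Of the 300-base RefSeq windows around starts (250 bases before to 50 after, build GRCm38.p6, the mm10 assembly), 80 lay wholly inside 64 members of the Chd7 replicate 1 side and 110 inside 94 members of the replicate 2 side. The sequences below are the windows of the 2 members with the highest Chd8 fold on each side that contain one, with CG dinucleotides in capitals, so that the CpG content of these internal starts can be read directly. Ccdc174 is at chr6:91877803-91878102 (+ strand) and Mef2a at chr7:67372809-67373108 (− strand), both on the replicate 1 side. Mettl9 is at chr7:121034195-121034494 (+ strand) and Elavl2 at chr4:91376421-91376720 (− strand), both on the replicate 2 side.
Ccdc174: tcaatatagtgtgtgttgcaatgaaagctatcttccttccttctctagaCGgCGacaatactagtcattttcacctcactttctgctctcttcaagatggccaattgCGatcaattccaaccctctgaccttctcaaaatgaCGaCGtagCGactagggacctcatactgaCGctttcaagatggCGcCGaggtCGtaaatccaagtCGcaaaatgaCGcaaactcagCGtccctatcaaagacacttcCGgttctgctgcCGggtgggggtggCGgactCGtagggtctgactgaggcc
Mef2a: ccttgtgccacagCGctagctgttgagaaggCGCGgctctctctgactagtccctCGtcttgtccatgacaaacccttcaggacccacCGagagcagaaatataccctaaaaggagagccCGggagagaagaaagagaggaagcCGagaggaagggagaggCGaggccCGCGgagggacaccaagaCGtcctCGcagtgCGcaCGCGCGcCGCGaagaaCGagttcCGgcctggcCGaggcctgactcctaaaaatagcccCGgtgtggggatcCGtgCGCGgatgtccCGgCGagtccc
Mettl9: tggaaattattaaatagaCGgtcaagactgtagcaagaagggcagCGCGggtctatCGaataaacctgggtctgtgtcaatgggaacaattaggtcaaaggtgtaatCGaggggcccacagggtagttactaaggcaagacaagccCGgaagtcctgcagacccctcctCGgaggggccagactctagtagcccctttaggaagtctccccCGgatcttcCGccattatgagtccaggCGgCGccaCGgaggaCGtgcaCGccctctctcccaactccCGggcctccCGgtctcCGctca
Elavl2: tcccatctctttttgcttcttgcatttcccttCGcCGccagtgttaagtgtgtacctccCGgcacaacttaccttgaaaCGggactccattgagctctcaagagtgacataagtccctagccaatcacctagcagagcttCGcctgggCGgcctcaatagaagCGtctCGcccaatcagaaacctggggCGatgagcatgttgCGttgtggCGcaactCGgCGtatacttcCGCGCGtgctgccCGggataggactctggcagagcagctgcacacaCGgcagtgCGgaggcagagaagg
Mef2a, which encodes a MADS-box transcription factor, had 27 CG dinucleotides in its window, and 15.5% of all 32851 windows had as many or more. Elavl2, which encodes a neuronal RNA-binding protein, had 19, and Ccdc174 and Mettl9 had 17 each. The median over the windows inside members was 16 CG on the replicate 1 side and 24 on the replicate 2 side, against 7 in all windows of the table. The observed to expected CpG ratio had medians of 0.69 and 0.83, against 0.38 in all windows. Protein-coding genes gave 50 of the 80 windows of the replicate 1 side and 87 of the 110 of the replicate 2 side, against 21263 of 32851 in the table. How far this mix bears on the medians was not tested. Windows inside peaks of neither Chd7 library had a median of 16 CG and a ratio of 0.69, and those inside peaks of both had 25 CG and 0.81. The windows inside each class of distal Chd8 peak thus had a higher median CpG content than the table as a whole.

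A pair of further windows are shown for contrast and were chosen after their values were seen. Gm19417 is an lncRNA whose start lies inside Nfia, a gene of a nuclear factor I transcription factor, at chr4:97868960-97869259 (− strand), and Myt1, a zinc finger factor of the neural lineage, has the window chr2:181796057-181796356 (+ strand). Capitals again mark CG dinucleotides.
Gm19417: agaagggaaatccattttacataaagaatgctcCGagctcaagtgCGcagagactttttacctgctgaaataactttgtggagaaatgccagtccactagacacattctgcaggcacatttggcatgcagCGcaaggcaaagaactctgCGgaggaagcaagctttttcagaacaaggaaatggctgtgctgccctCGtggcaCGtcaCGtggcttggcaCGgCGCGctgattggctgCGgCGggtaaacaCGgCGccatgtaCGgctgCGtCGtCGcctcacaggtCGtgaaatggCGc
Myt1: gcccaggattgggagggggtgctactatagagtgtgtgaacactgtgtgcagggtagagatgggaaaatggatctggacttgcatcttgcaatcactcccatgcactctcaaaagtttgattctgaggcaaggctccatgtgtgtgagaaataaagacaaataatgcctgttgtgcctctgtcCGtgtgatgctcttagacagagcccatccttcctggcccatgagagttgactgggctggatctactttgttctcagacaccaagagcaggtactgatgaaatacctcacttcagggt
The Gm19417 window held 20 CG and the Myt1 window held 1. As many CG as in Myt1 or more were found in 94.6% of all windows, and both members had high Chd8 fold, at 8.30 and 7.86. Short motifs for 6 factor families were searched on both strands of the windows, and a match is a description of the letters only. ETS (CCGGAA) was in 22.5% of windows inside replicate 1 side members and 26.4% of those inside replicate 2 side members, against 14.9% of all windows. The share was 30.2% for starts inside peaks of neither Chd7 library and 29.4% for those inside peaks of both. The ETS motif itself holds a CG, and windows inside each class had a higher median CG count than the table. How far CpG content bears on the ETS shares was not tested. Sox (ACAAAG or ACAATG) was in 35.0% and 18.2%, against 28.6% of all windows, and the E-boxes (CAGCTG or CATATG or CAGATG) in 30.0% and 23.6%, against 33.4%. AP-1 (TGANTCA) was in 8.75% and 3.64%, against 7.81%, and TEAD (GGAATG) in 16.2% and 10%, against 14.7%. For windows inside peaks of neither and of both Chd7 libraries, the shares were 26.4% and 17.6% for Sox and 25.2% and 27.9% for the E-boxes. They were 6.29% and 1.47% for AP-1 and 13.2% and 8.82% for TEAD. The full nuclear factor I palindrome was in 0 windows of either side and in 0.0365% of all. The windows inside members are few, and the letters of members without a start window were not analysed here.

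The members of the 2 sides differed in their overlap with input peaks. A peak of any input overlapped 762 of the 2402 members (31.7%, 29.9 to 33.6), against 26.6% of all distal Chd8 peaks. On the replicate 1 side the share was 322 of 1781 (18.1%, 16.3 to 19.9), and on the replicate 2 side 440 of 621 (70.9%, 67.1 to 74.4). The first share was below that of distal peaks in neither Chd7 library (22.8%, 21.8 to 23.8), and the second was above that of peaks in both (52.9%, 48.5 to 57.3). Input 3, the one the titles pair with Chd8, overlapped 15.6% and 62.8% of the 2 sides, against 23.3% of all distal Chd8 peaks. Input 1 overlapped 5.39% and 30.0%, and input 2 overlapped 3.37% and 30.1%. The order of the sides was thus the same against each of the 3 inputs. The input lists cover 40.7, 81.5 and 34.2 Mb, against 8.83 Mb for Chd8. The part of input signal in either side was not tested.

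**Figure D1:**
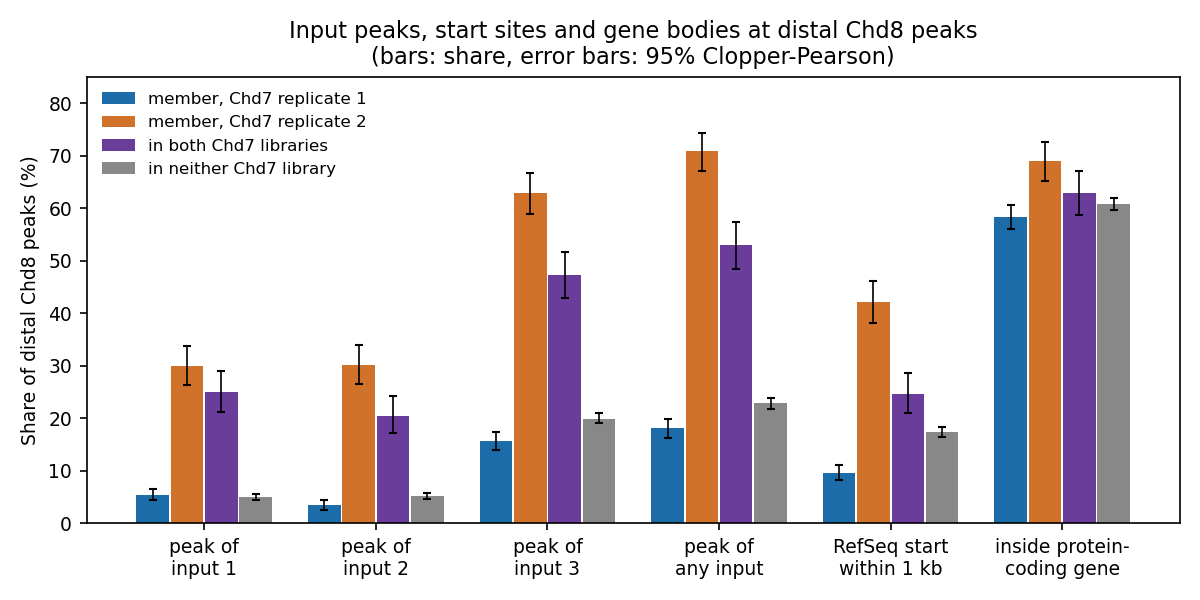
Share of distal Chd8 peaks (%, vertical axis) that overlap a peak of each input or of any input, that have a RefSeq start within 1 kb, or that lie inside a protein-coding gene; bars are shares and error bars are 95% Clopper-Pearson intervals over peaks. Members of the Chd7 replicate 2 side stand at 70.9% for any input and 42.1% for a start, and members of the replicate 1 side at 18.1% and 9.51%.

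Start sites separated the sides in the same order. A start of a protein-coding gene or an lncRNA lay within 1 kb of 414 of 2302 members (18%, 16.4 to 19.6), close to the 17.9% of all distal Chd8 peaks. The start table has no entry on chromosome 18, and the 100 members there are left out of this share. The share was 9.51% (8.16 to 11.0, 162 of 1704) on the replicate 1 side and 42.1% (38.1 to 46.2, 252 of 598) on the replicate 2 side. It was 17.3% for peaks in neither Chd7 library and 24.6% for peaks in both. Starts of protein-coding genes were near 5.46% and 33.8% of the 2 sides, and starts of lncRNAs near 4.81% and 11.0%. Inputs and starts went together: on the replicate 2 side a start was near 48.5% of members with an input peak and 26.6% of those without, and on the replicate 1 side near 19% and 7.34%. Among members without an input peak the difference between sides therefore remained, at 26.6% (20.2 to 33.8, 46 of 173) against 7.34% (6.03 to 8.84, 102 of 1389). Members with neither an input peak nor a start within 1 kb made up 61.4% of the set, 75.5% of the replicate 1 side and 21.2% of the replicate 2 side. By starts alone, most members of either side had no listed start within 1 kb. An internal or non-coding start was near 42.1% of the replicate 2 side, against 9.51% of the replicate 1 side.

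The order was the same in all distal peaks of the Chd7 libraries, but these totals include the peaks at members. They are therefore not a separate showing of it, and shares for Chd7 peaks away from members were not computed. Of 3283 distal mock-free peaks of Chd7 replicate 1, 20.8% overlapped an input peak and 11.0% had a start within 1 kb. Of 3029 distal mock-free peaks of Chd7 replicate 2, 42.3% overlapped an input peak and 16.8% had a start within 1 kb. A Chd8 peak overlapped 71.8% of the former and 39.3% of the latter. The members of the replicate 1 side overlapped 1778 distinct Chd7 peaks and those of the replicate 2 side 617, so nearly every member had a Chd7 peak of its own.

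The 2 sides also lay at different distances from genes. The median distance to the nearest protein-coding gene boundary was 32619 bp (quartiles 10406 and 88709) on the replicate 1 side and 7000 bp (2322 and 26711) on the replicate 2 side. It was 18974 bp for peaks in neither Chd7 library and 17838 bp for peaks in both. Between 1 and 5 kb from a boundary lay 13.8% of the replicate 1 side and 43.5% of the replicate 2 side, and beyond 100 kb lay 22.5% and 5.96%. A midpoint inside a protein-coding gene was found for 61.0% of members, the same share as for all distal Chd8 peaks (61.0%), with 58.3% (56.0 to 60.6) on the replicate 1 side and 68.9% (65.1 to 72.5) on the replicate 2 side.

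**Figure D2:**
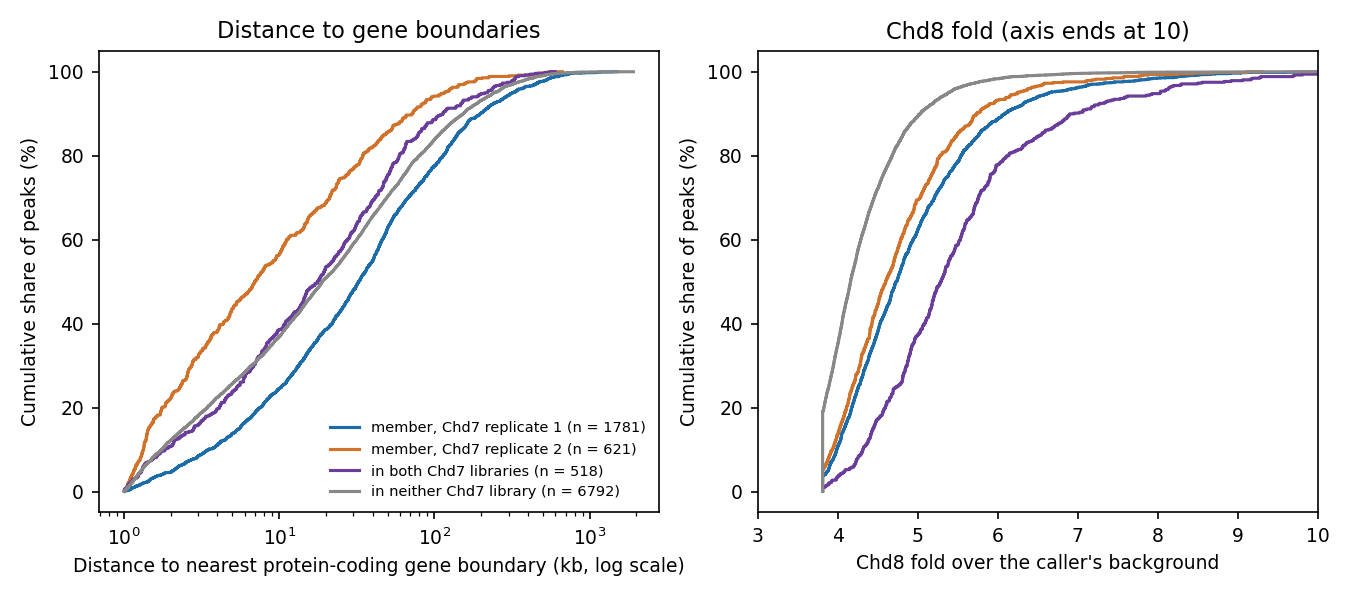
Cumulative share of distal Chd8 peaks (%) by distance to the nearest protein-coding gene boundary (kb, log scale, left) and by Chd8 fold over the caller's background (right, axis ending at 10), with 1 line for each class. The replicate 2 side of the members rises first with distance (median 7000 bp) and the replicate 1 side last (median 32619 bp), whereas the 2 sides lie close together in Chd8 fold, between the peaks in neither and in both Chd7 libraries.

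In the strength of the Chd8 peak the sides were close. The fold, the height of a peak over the local background that the authors' caller gave, had a median of 4.73 on the replicate 1 side and 4.60 on the replicate 2 side, with quartiles of 4.26 to 5.38 and 4.19 to 5.17. Peaks in neither Chd7 library had a median of 4.16 and peaks in both had 5.30. The median width was 460 bp and 469 bp on the 2 sides, against 272 bp for peaks in neither and 676 bp for peaks in both. The share of distal Chd8 peaks that were members rose with width, from 11.2% through 17.5% and 27.1% to 43.3% over the width quartiles, and with fold, from 9.35% through 18.6% and 27.8% to 43.2%. Wide peaks offer more bases to an overlap of 1 bp, and how much of the rise comes from width alone was not tested. The difference between sides in input overlap was present at every width: within the width quartiles the share with any input peak ran from 14.2% to 21.6% on the replicate 1 side and from 58.8% to 75.5% on the replicate 2 side.

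**Figure D3:**
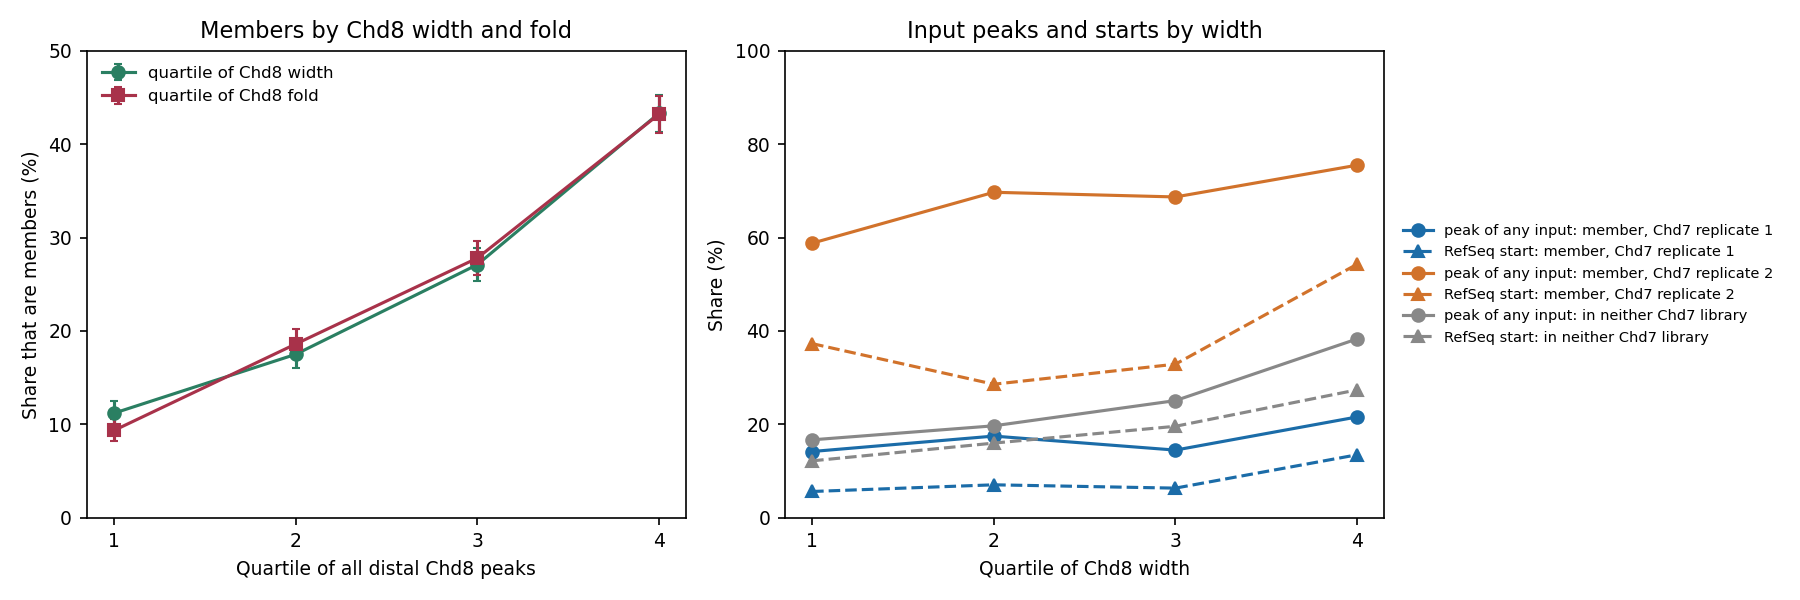
Left, share of distal Chd8 peaks that are members (%) by quartile of Chd8 width and of Chd8 fold, with 95% Clopper-Pearson intervals, rising from 11.2% to 43.3% with width and from 9.35% to 43.2% with fold. Right, share with a peak of any input (circles) and with a RefSeq start within 1 kb (triangles) by quartile of Chd8 width for both sides of the members and for peaks in neither Chd7 library; the replicate 2 side lies above the replicate 1 side in each quartile.

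The overlapping Chd7 peaks had a median fold of 4.73 in replicate 1 and 3.35 in replicate 2, near the medians of all distal Chd7 peaks of those libraries, 4.65 and 3.31. The caller's fold depends on each library, so the levels are not compared between libraries. Few members were near misses of the library they lacked. A peak of the other Chd7 library lay within 500 bp of 32 members, 18 on the replicate 1 side and 14 on the replicate 2 side, and within 100 bp of 8. The nearest such gap was 3 bp. The median distance to a peak of the other library was 98464 bp on the replicate 1 side and 69918 bp on the replicate 2 side. The overlap between the Chd8 peak and its Chd7 peak covered a median of 50.6% of the Chd8 width, but 75 members had an overlap under 50 bp and the smallest was 1 bp.

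At the 1 kb limit, the nearest members were at Mettl24 (1007 bp), Inava (1011 bp) and Egr1 (1011 bp), with Chd8 folds of 4.09, 3.96 and 3.81. The nearest peaks in one Chd7 library that fell short of it were at Nudcd3 (996 bp), Cfap97 (994 bp) and Igf1r (989 bp), with folds of 10.5, 5.11 and 5.31. Chd8 peaks at gene ends in one Chd7 library numbered 2650 in all, and 79.6% of them overlapped an input peak.

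The members with the highest Chd8 fold were on the replicate 1 side with 2 exceptions among 12. At chr2:178158908-178159497, inside Phactr3, a regulator of protein phosphatase 1 and actin, the Chd8 fold was 11.7 and the Chd7 replicate 1 fold was 6.01. A member nearest to Car8, at chr4:8373649-8375408 and 134608 bp from any protein-coding boundary, had a Chd8 fold of 11.2 and a Chd7 replicate 1 fold of 4.96. Neither overlapped an input peak, and the same was true of the members near Rad51b (Chd8 fold 9.77) and Kank1 (9.59) and inside Sema5a (9.11) and Unc5c (8.91), the last being a netrin receptor gene. Input 3 overlapped the members inside Ccdc174 (9.04), Fhit (8.88) and Mef2a (8.72), and inputs 2 and 3 overlapped that inside Gipc1 (9.03). The exceptions were Sfpq, which encodes a splicing factor of paraspeckles, and Mettl9. The Sfpq member had a Chd8 fold of 9.31, a Chd7 replicate 2 fold of 4.63 and an input 3 peak of fold 3.74, 708 bp from a start. The Mettl9 member had a Chd8 fold of 9.11, a Chd7 replicate 2 fold of 3.29 and no input peak, and it contains the start window shown above.

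Ranked by Chd7 fold, the first member of the replicate 1 side lay inside Fbxw4 (Chd7 fold 8.06, Chd8 fold 5.46), where the inputs had peaks of 13.4, 12 and 11.1. Inputs also had peaks of 8.13, 7.94 and 6.37 at the Y chromosome member nearest to Gm52481 (Chd7 fold 7.01). The others of the first 6 were near Adgrl3 (Chd7 fold 7.76) and Foxn2 (7.12), without an input peak, near Abhd17b (7.24), with an input 2 peak of 3.68, and near Ptprz1 (7.12), with an input 3 peak of 4.15. Ptprz1 encodes a receptor phosphatase of precursor cells, and its member lies at chr6:22834685-22834931, 40384 bp from the gene, with a Chd8 fold of 6.49. On the replicate 2 side the first 6 were at Skp1 (Chd7 fold 5.65), Cercam (5.45), Spen (5.25), Klhl3 (5.22), Cxxc5 (5.05) and Yy1 (5.03). Cercam alone of these had no input peak.

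Genes were then read by their loci, each extending 10 kb beyond either boundary of the gene. A member lay at the locus of 1622 of 21887 protein-coding genes (7.41%), with 1.32 members per Mb of locus. By the nearest gene alone, the members named 8.47% of genes, and with 50 kb on either side of the gene 15.8% had one. A replicate 1 side member lay at 5.09% of genes, a replicate 2 side member at 2.69%, and a member without an input peak at 4.62%. The gene lists were drawn up with earlier results of these data known, their loci differ in length, and neighbouring loci can share a member. The counts below are therefore descriptions beside the same counts over all genes.

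**Figure D4:**
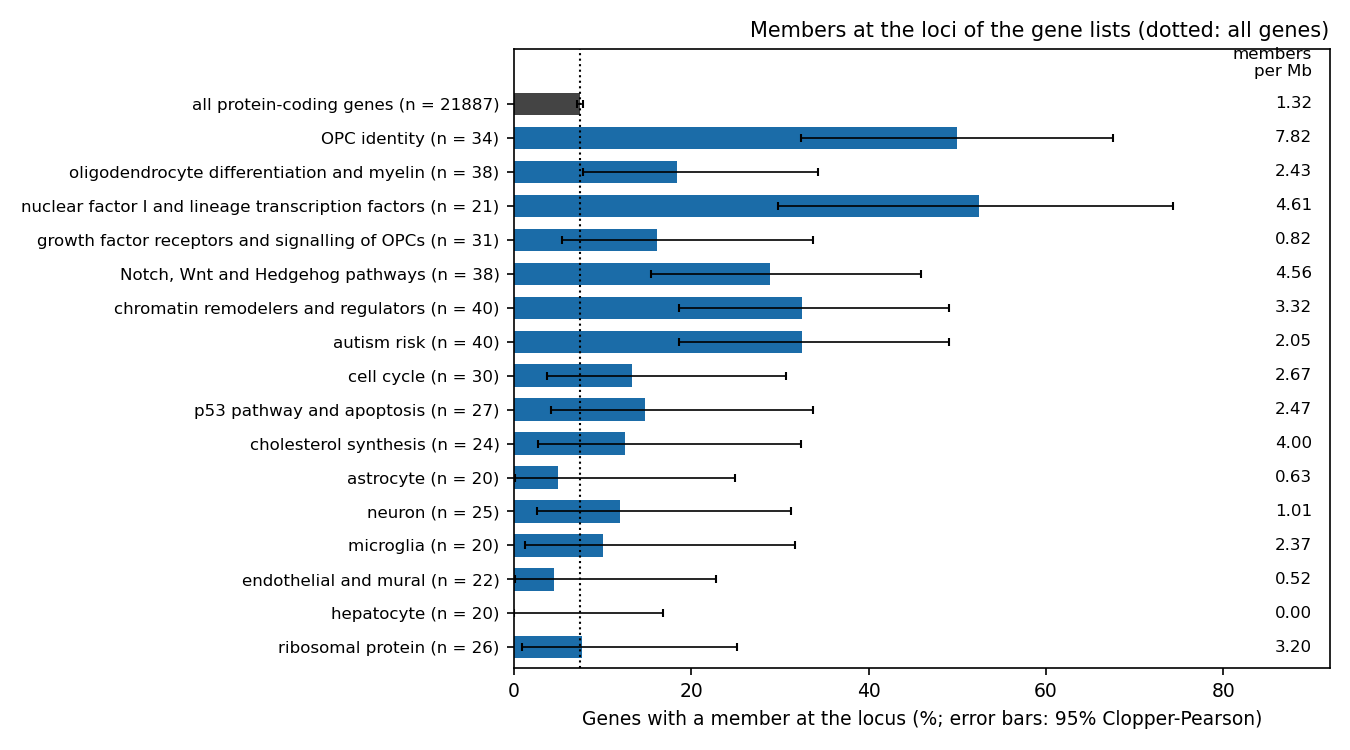
Share of genes with a member at the locus (%, horizontal axis) for all protein-coding genes and 16 gene lists; bars are shares, error bars are 95% Clopper-Pearson intervals over genes, the dotted line is the share of all genes (7.41%), and the figures at the right are members per Mb of locus. OPC identity stands at 50% and 7.82 members per Mb, and the hepatocyte list at 0.

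Genes of OPC identity, the transcription factors, receptors and matrix proteins by which precursors are recognised, had a member at 17 of 34 loci (50%, 32.4 to 67.6). They held 42 members, or 7.82 per Mb, and members were 33.9% of the distal Chd8 peaks there, against 23.7% over the loci of all genes. A share of this size was not particular to the list. It was 31.8% for Notch, Wnt and Hedgehog genes, 36.4% for p53 and apoptosis (11 distal peaks) and 44.4% for cholesterol synthesis (9 distal peaks). By contrast, it was 11.5% for growth factor genes. Among the lists of other cell types it was 5.26% for astrocyte (19 distal peaks) and 16.7% for neuron (18 distal peaks). It was 66.7% for microglia (3 distal peaks), 100% for endothelial and mural (1 distal peak) and 0% for hepatocyte (1 distal peak). Of the 42 members, 38 were on the replicate 1 side and 4 on the replicate 2 side. Over all genes the counts were 1336 and 628 pairs of a member and a locus, where a member at several loci counts at each. With only members free of input peaks, 14 of the 34 genes (41.2%) still had one, at 6.14 per Mb against 0.790 over all genes. A replicate 1 side member lay at 14 of the genes and a replicate 2 side member at 4. With Chd7 replicate 1 left out and each distal Chd8 peak that overlaps replicate 2 counted, 9 of the 34 (26.5%) had one, against 4.49% of all genes, and with Chd7 replicate 2 left out 18 (52.9%), against 6.72%.

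Among the transcription factors, Olig1 and Olig2 are neighbouring basic helix-loop-helix genes that specify the lineage. Olig1 had 2 members, both on the replicate 1 side and neither with an input peak. That at chr16:91265961-91266281 had a Chd8 fold of 5.33 and a Chd7 fold of 4.20, and that at chr16:91262862-91263158 had 4.75 and 5.39. They lie 3488 and 6611 bp outside Olig1, between it and Olig2. The Olig2 member lies on the far side, 2331 bp before the Olig2 start, at chr16:91222421-91223219. It had a Chd8 fold of 4.18, a Chd7 replicate 2 fold of 3.26 and input peaks of 3.76, 3.69 and 3.47. The 2 members by Olig1 and the 1 by Olig2 therefore came from different Chd7 libraries, and the inputs had peaks at the latter alone.

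Sox8, a SoxE factor of oligodendrocyte development, had 2 members on the replicate 1 side with Chd8 folds of 5.07 and 3.81 and Chd7 folds of 4.55 and 4.18, 8331 and 3874 bp outside the gene. Sox5 and Sox6 are SoxD factors that hold precursors back from differentiation. Sox6 had 4 members and Sox5 had 2, all inside the genes, on the replicate 1 side and without an input peak. Their Chd8 folds were 4.91, 4.49, 3.98 and 3.89 for Sox6 and 5.87 and 4.73 for Sox5, and 1 of the Sox6 members spans a start. Sox11 had 1 member on the replicate 2 side, with a Chd8 fold of 3.84. Sox10, the SoxE factor that sustains the lineage, had 0 members and 1 distal Chd8 peak at its locus, and 2 members within 50 kb. Nkx2-2, a homeodomain factor of the lineage, had 0 members among 7 distal Chd8 peaks, 1 of which was in both Chd7 libraries.

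Receptors and surface proteins formed the second group. Pdgfra, the receptor through which PDGF keeps precursors dividing, had 1 member inside the gene, 11416 bp from its boundary, at chr5:75162738-75164026. It had a Chd8 fold of 5.55, a Chd7 replicate 1 fold of 5.20 and no input peak. Cspg4, which encodes the NG2 proteoglycan, had 3 members between 11538 and 16423 bp from its start. Their Chd8 folds were 4.76, 4.15 and 4.93 and their Chd7 replicate 1 folds 4.40, 4.70 and 4.88, and input 3 had a peak at each of them, of 3.43, 4.33 and 3.40. A further Chd8 peak in the gene, of fold 5.07, was in both Chd7 libraries. The member assigned to Gpr17, a receptor of committed precursors, had a Chd8 fold of 6.47 and a Chd7 replicate 1 fold of 4.92 and lies 3455 bp from that gene, inside its neighbour Lims2. Cacng4, a subunit that trims AMPA receptor gating, had 3 members with Chd8 folds of 7.05, 5.77 and 5.41. The third of these was on the replicate 2 side, and it and the first had an input 3 peak.

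Within the OPC identity list, Tnr and Xylt1 had the most members, 5 each. Tnr, which encodes the matrix protein tenascin-R, had its members spread over its body, all on the replicate 1 side and none with an input peak. Their Chd8 folds were 7.85, 6.93, 6.32, 4.95 and 4.89, with Chd7 folds of 4.42, 5.11, 4.50, 4.35 and 4.48 in the same order. Of the 10 distal Chd8 peaks at the Tnr locus, 5 were thus members, and 0 were in both Chd7 libraries. Xylt1, the xylosyltransferase that starts glycosaminoglycan chains on proteoglycans, also had all 5 on that side. Their Chd8 folds were 7.24, 7.07, 5.69, 4.88 and 4.70, and input 3 had a peak at the second and input 1 at the fourth. Dscam, an adhesion molecule gene that is also on the autism list, had 4 members of Chd8 fold 3.99 to 5.77 without an input peak. Epn2, an endocytic adaptor gene, had 3 (6.86, 4.70 and 3.89), Lhfpl3 had 2 (5.98 and 5.05) and Megf11 had 2 (5.50 and 5.22), all on the replicate 1 side without an input peak. Bcan, which encodes the matrix proteoglycan brevican, had 1 member on the replicate 2 side, with a Chd8 fold of 4.79, an input 3 peak of 3.87 and a start inside it.

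**Figure D5:**
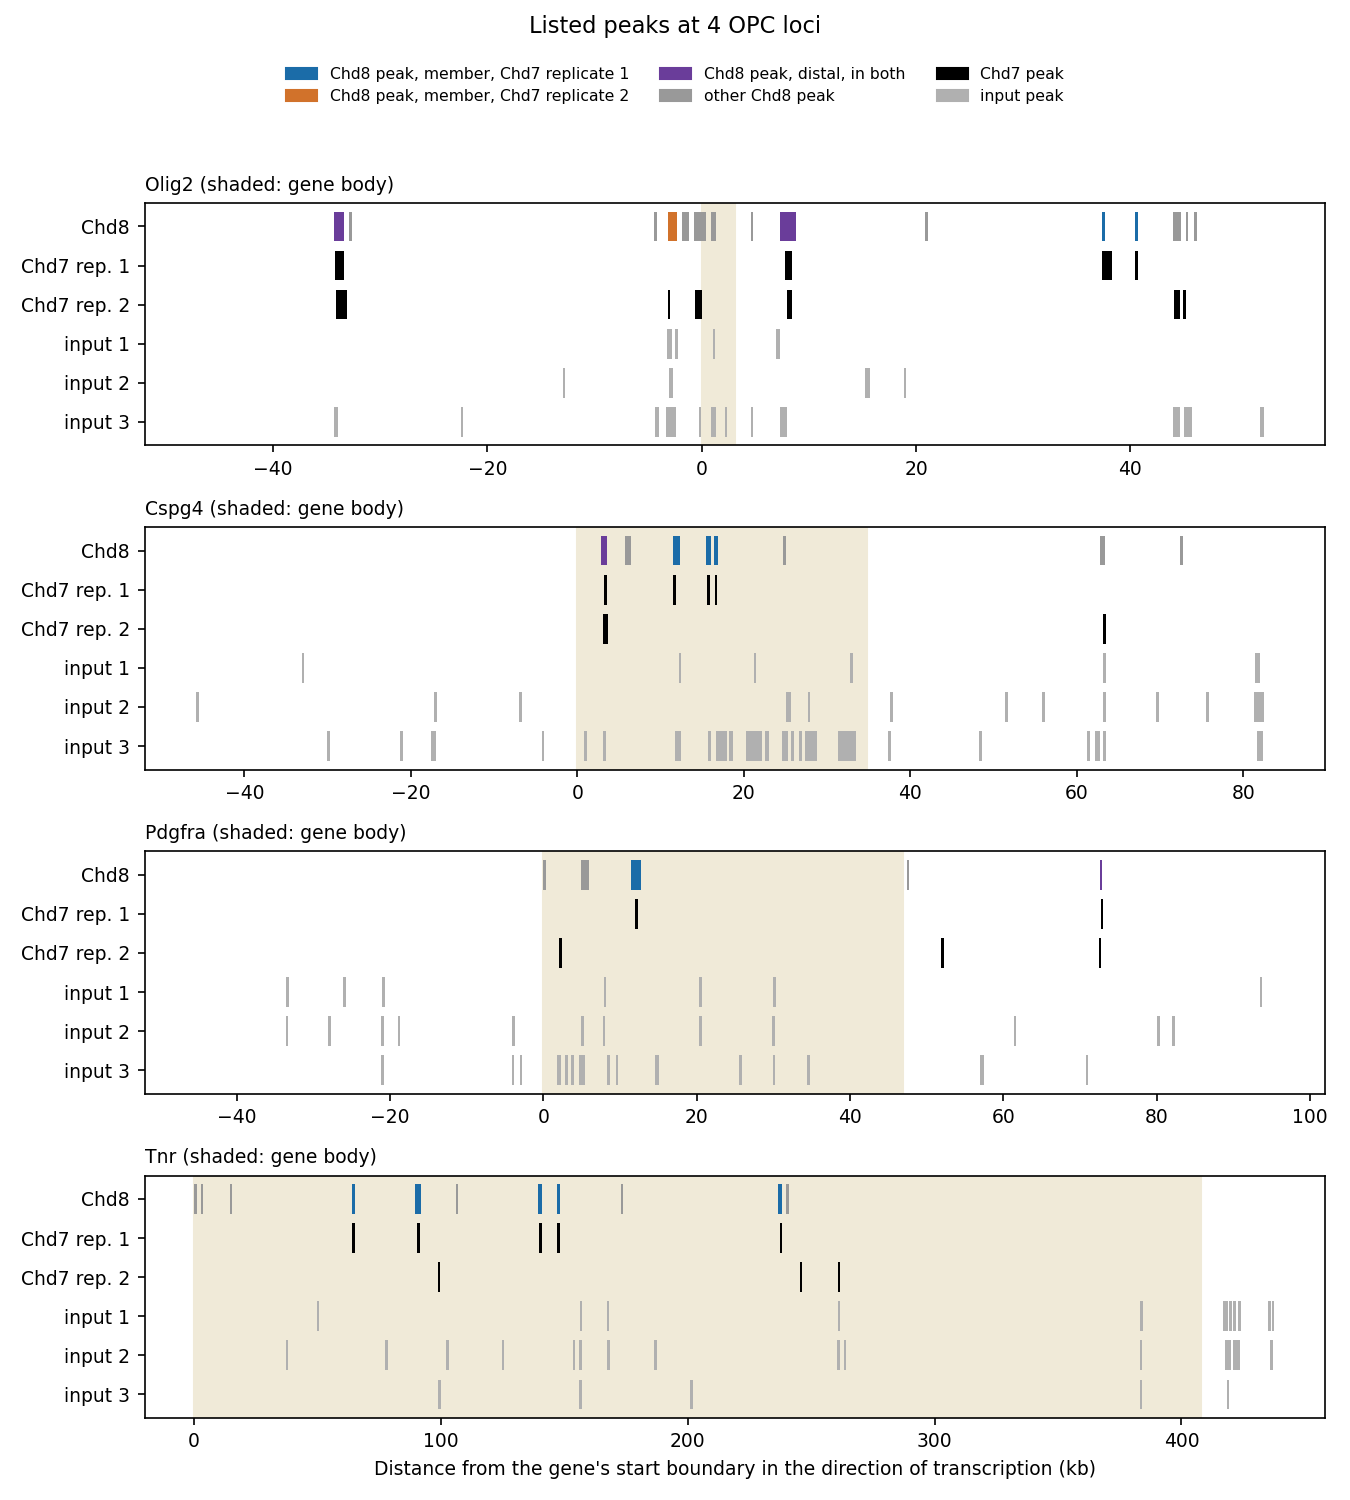
Listed peaks of Chd8, both Chd7 libraries and the 3 inputs at Olig2 (with the Olig1 members to its right), Cspg4, Pdgfra and Tnr, by distance from the gene's start in the direction of transcription (kb), with the gene body shaded and narrow peaks drawn at a minimum width. Blue marks members of the Chd7 replicate 1 side, orange those of the replicate 2 side and purple distal Chd8 peaks in both Chd7 libraries; the Olig2 member alone of those coloured blue or orange at this locus lies over peaks of all 3 inputs.

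Genes of differentiation and myelin had a member at 7 of 38 loci (18.4%, 7.74 to 34.3), with 9 members, 2.43 per Mb and 20.9% of the distal Chd8 peaks there. Of the 9, 8 were on the replicate 1 side. Without Chd7 replicate 1, 4 of the 38 genes had one, and free of input peaks 5 (13.2%). Ugt8a, which makes the myelin lipid galactocerebroside, had the highest, a member 5141 bp inside the gene with a Chd8 fold of 7.41, a Chd7 fold of 4.15 and no input peak. Mbp, which encodes myelin basic protein, had 1 member (Chd8 fold 4.62, Chd7 fold 4.35), 35599 bp from a boundary and without an input peak. Bcas1, a gene of early myelinating cells, had 2 (Chd8 fold 5.35 and 4.47), Tspan2 had 1 (4.76) and Tcf7l2, a transcription factor of the Wnt pathway that is active in differentiating oligodendrocytes, had 2 (4.35 each). The members counted for Mog and Gal3st1 lie inside other genes, Zfp57 and Pes1, and both had an input peak. Myrf, the factor that switches on myelin genes, had 0 distal Chd8 peaks at its locus.

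Nuclear factor I and other lineage factors had a member at 11 of 21 loci (52.4%, 29.8 to 74.3), with 4.61 per Mb, although members were 18.6% of the distal Chd8 peaks there. Nfia held the member of highest Chd8 fold (8.30, over the Gm19417 start shown above, with an input 3 peak of 3.50), followed by Tcf12 (5.89), an E protein gene, and Nfix (5.52). Notch, Wnt and Hedgehog genes had one at 11 of 38 (28.9%), with 7 members from each Chd7 library. The first 2 of them by Chd8 fold, Rbpj (5.66), the DNA-binding partner of Notch, and Ptch1 (5.59), the Hedgehog receptor, were on the replicate 2 side with input peaks. Notch1 (5.26) was on the replicate 1 side without one. Growth factor receptor and signalling genes had one at 5 of 31 (16.1%, 0.819 per Mb), led by Ntrk2 (6.53), Sema6a (5.71) and Lrp1 (5.34). With only members free of input peaks, the lineage factors had one at 7 of 21 loci (33.3%), the Notch, Wnt and Hedgehog genes at 6 of 38 (15.8%) and the growth factor genes at the same number, 5 of 31.

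Chromatin regulators had a member at 13 of 40 loci (32.5%, 3.32 per Mb), 9 from each Chd7 library, led by Chd9 (5.80), Smarcc1 (5.72) and Tet1 (5.58). Autism risk genes also had one at 13 of 40 (32.5%), but at 2.05 per Mb, since their median locus is 149 kb against 37.2 kb over all genes. Trio (5.93), Dscam (5.77) and Myt1l (5.76) came first. The cell cycle list had 4 of 30, led by Ccnd1 (5.41, replicate 2 side), and the list of p53 targets and apoptosis 4 of 27, led by Mcl1 (6.58), a survival gene of the Bcl2 family. The cholesterol synthesis list had 3 of 24, at Srebf1 (5.04), Dhcr7 (4.60) and Fdps (4.45). The member counted for Fdps lies inside another gene, Rusc1, with peaks of inputs 2 and 3, and that of Srebf1 had an input 3 peak. Free of input peaks, a member was left at 10 of 40 chromatin loci, 9 of 40 autism loci (22.5%), 1 of 30 cell cycle loci (3.33%), 1 of 27 p53 and apoptosis loci (3.70%) and 1 of 24 cholesterol loci (4.17%), and the last 3 shares are below the 4.62% of all genes. Leaving out 1 Chd7 library moved some of these counts by more than 1.5 times: without Chd7 replicate 1, p53 and apoptosis had 2 of 27 and Notch, Wnt and Hedgehog 7 of 38, and without Chd7 replicate 2, cell cycle had 2 of 30, cholesterol 1 of 24 and autism 8 of 40.

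The interval of the share includes the 7.41% of all genes for the growth factor (5.45 to 33.7), cell cycle (3.76 to 30.7), p53 and apoptosis (4.19 to 33.7) and cholesterol (2.66 to 32.4) lists, and likewise for ribosomal protein genes and the marker lists of other cell types. An interval takes no account of locus length, and one that leaves out 7.41% is not a test. That of differentiation and myelin began at 7.74, and free of input peaks it was 4.41 to 28.1, against 4.62% of all genes. The astrocyte list had a member at 1 of 20 loci (Slc1a3, Chd8 fold 4.73), the neuron list at 3 of 25 (among them Map2, 4.69, and Neurod6, 4.19) and the microglia list at 2 of 20 (Ptprc, 5.01, and Sall1, 4.32). The endothelial and mural list had 1 of 22 (Vwf, 6.87), the hepatocyte list 0 of 20, which allows a share of up to 16.8%, and the ribosomal protein list 2 of 26, with 0 of 26 free of input peaks. Without Chd7 replicate 1 the astrocyte and endothelial lists had 0, and the neuron, microglia and hepatocyte lists 1 each. Without Chd7 replicate 2 the microglia and hepatocyte lists had 1 each.

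Outside the lists, members gathered at a few loci. The gene with the most was 1600014C10Rik on chromosome 7, with 7 members within chr7:38176208-38201476, all on the replicate 1 side. Each of the 7 overlapped a peak of input 3, of fold 4.23 to 6.31, and their Chd8 folds were 3.81 to 5.40. Ncald, a neuronal calcium sensor gene, had 5 members of Chd8 fold 3.96 to 7.09 without an input peak, 1 of them inside 4930447A16Rik. Elfn2 (3.81 to 5.62), Pde4b (4.22 to 5.11) and Trio (4.16 to 5.93) had 4 each, like Dscam and Sox6. In Pde4b 2 of the 4 and in Trio 1 of the 4 were on the replicate 2 side. Clusters were the exception: joined across gaps of up to 10 kb, the 2402 members formed 2277 groups, of which 2162 held 1 member and 115 held at least 2.

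Small RNA genes were not part of the rule either. A miRNA gene lay within 1 kb of 10 members (0.416%), against 0.515% of distal Chd8 peaks in neither Chd7 library and 0.772% (4 of 518) in both. Of the 10, 8 were on the replicate 2 side (1.29% of it). Mir219a-2 and Mir9-2 are described for their known roles in neural cells and were picked after their values were seen. The other members lay near Mir802, Mir1895, Mir6976, Mir6991, Mir7117, Mir7655 and Mir7688, with Chd8 folds of 3.81 to 5.78. Mir219a-2 encodes miR-219, which promotes oligodendrocyte maturation, and its member is the Cercam site above, chr2:29846159-29846457, 432 bp from the hairpin. It had a Chd8 fold of 4.23, a Chd7 replicate 2 fold of 5.45 and no input peak. Mir9-2 encodes miR-9, a miRNA of neural progenitors, and its member at chr13:83739832-83740113, 947 bp away, had 4.19 and 3.30, likewise on the replicate 2 side and without an input peak. The mature sequences from RefSeq are given to identify the miRNAs, with the seed (bases 2 to 8) in capitals.
mmu-miR-219a-5p: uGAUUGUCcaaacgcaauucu
mmu-miR-9-5p: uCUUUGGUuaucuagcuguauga
mmu-miR-9-3p: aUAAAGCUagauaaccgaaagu
The 3 seeds differ. tRNA genes lay within 1 kb of 14 members (0.583%), 6 on the replicate 1 side (0.337% of it) and 8 on the replicate 2 side (1.29% of it). The share was 0.957% of peaks in neither Chd7 library and 0 of 518 in both. lncRNA gene boundaries were near 9.83% of members, against 9.54% of peaks in neither Chd7 library and 13.3% in both, with 7.97% on the replicate 1 side and 15.1% on the replicate 2 side.

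Across chromosomes the share of distal Chd8 peaks that were members ran from 22.6% to 27.2% on the autosomes. It was 13.8% (19 of 138) on X and 84.6% (11 of 13) on Y, where 6 of the 11 overlapped an input peak.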

How the data were processed

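ChIP-seq of Chd7, Chd8, mock IgG and input was analysed from peak lists, 1 broad peak list per library. Per the submitters' processing notes, Bowtie2, SAMtools, Picard and MACS were used on mm10. Their versions and settings, and the control each list was called against, were not in the sources at hand. Each line of the deposited lists gives a peak with a score, its fold, which is a ratio over the caller's local background as the authors computed it, and its −log10 p and −log10 q, also deposited values. No reads were analysed and the depth of the libraries is unknown, so the number of peaks sets the precision.

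Libraries were grouped by title. The extraction notes name the O4 antibody for the precipitation, whereas the sample labels name anti-Chd7 and anti-Chd8, and the labels were used. In 2 of the lists, Chd7 replicate 2 and Chd8, the track is numbered differently from the title, and by track inputs 2 and 3 would change places.

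Overlaps of at least 1 bp, distances and shares were computed with Python 3.11.15, numpy 2.4.6, pandas 2.3.3 and scipy 1.17.1, and interval arithmetic was tested on simulated data. RefSeq gene boundaries and 32851 start windows of GRCm38.p6 were used. The start table is incomplete: 17492 of 21887 protein-coding and 9533 of 12727 lncRNA genes have a window, with none on chromosome 18, so shares near a start are lower limits. The 16 gene lists held 443 distinct genes, and 443 matched by symbol. A member was counted at a locus by its midpoint. Motifs planned for peak centres need the genome and were searched only in start windows.

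Sites named were the 12 with the highest Chd8 fold, the 6 of each side with the highest Chd7 fold, every OPC identity or differentiation gene with a member, the first 3 genes of other lists, the 10 genes with most members, those nearest the 1 kb limit, and always Olig1, Olig2, Sox10, Sox8, Pdgfra, Myrf, Mbp, Nkx2-2, Gpr17 and Cspg4. Not every site under this rule is reported here. miRNA sites and 2 start windows were chosen after their values were seen. The members and lists were chosen with earlier results of these data known. Alternatives were stricter Chd8 limits, other overlap, distance and locus rules, equal numbers of Chd7 peaks, mock or input peaks kept or removed, no sex chromosomes and each Chd7 library left out. Nothing was tested over regions, because members of 1 library are not replicates.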

Additional observations from a re-analysis of the deposited data

How the results depend on the processing

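No paired analysis was possible because Chd8 has a single library and no result comes from a test over samples. The number of members (2402) was 300 with Chd8 peaks of −log10 q of at least 5, 865 with fold of at least 5, and, with any overlap with the remaining Chd7 library counted, 1139 without Chd7 replicate 1 and 2299 without Chd7 replicate 2. The share on the Chd7 replicate 1 side (74.1%) was 81.3%, 77.9%, 77.6%, 89.0% and 81.4% with −log10 q of at least 5, with fold of at least 5, with equal numbers of Chd7 peaks, without peaks of any input and beyond 5 kb from boundaries. The share with an input 3 peak (27.8%) was 25% with −log10 q of at least 5, 0% by construction without input peaks and 21.2% beyond 5 kb, where the share with any input peak (31.7%) was 24.0%. These shares were 22.7% and 25.9% without Chd7 replicate 2, and 55.8% and 62.7% without Chd7 replicate 1. The share inside genes (61.0%) was 56.7%, 57.8%, 57.7% and 57.0% with −log10 q of at least 5, with fold of at least 5, without input peaks and beyond 5 kb, and 59.3% to 66.2% with 1 Chd7 library left out. The median Chd8 fold (4.70) was 6.39 and 5.56 under the 2 stricter limits, 4.64 when Chd7 peaks within 500 bp counted, and 4.85 to 4.90 with 1 Chd7 library left out. The median width (463 bp) was 689 bp and 589 bp under the stricter limits, 483 bp with an overlap of 50% of the shorter peak, 437 bp with Chd7 peaks within 500 bp, 442 bp without input peaks, and 510 to 579 bp with 1 Chd7 library left out. Keeping mock-touching peaks or leaving out the sex chromosomes moved none of these values beyond the interval of the main one.

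OPC identity genes with a member (50%) were 70.6% both with loci of 50 kb and by nearest gene, where all genes gave 15.8% and 8.47%. The following were chosen after seeing the data. Without Chd7 replicate 1 the share was 26.5% for OPC identity and 4 of 38 genes for differentiation and myelin (18.4%), and without Chd7 replicate 2 it was 52.9% and 23.7%. The share of members with a start within 1 kb (18%) was 9.48% without input peaks and 12.9% without Chd7 replicate 2 and 34.2% without Chd7 replicate 1. The side share has no value with 1 Chd7 library left out, nor the share with any input peak once input peaks are removed. Depth is unknown, so a missing Chd7 peak may lie below the caller's limit in that library.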
